A study of Mus musculus with 12 samples.

Results

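The proteasome genes were read as 50 protein-coding genes, taken by name from the count tables of mouse embryonic fibroblasts. A gene was included if both deposited tables listed it as protein coding and its symbol was Psma, Psmb, Psmc, Psmd, Psme, Psmf or Psmg followed by a digit. They are 50 of 20844 genes listed in both tables, of which 16631 are protein coding. By role they are 7 alpha and 7 beta subunits of the standard core, 17 subunits of the regulatory particle, 7 assembly chaperones, 3 immunoproteasome subunits, 4 activators, 1 inhibitor, the testis alpha subunit Psma8, the thymus beta subunit Psmb11, and 2 genes that carry the name without being proteasome subunits in the usual sense, Psmc3ip and Psme2b. The study isolated fibroblasts from embryos at day 13.5 to 14.5 and infected them at a multiplicity of 500 with adenovirus that carried Cre or was empty, and RNA was taken at day 4. In the Nrf2 groups all cells were homozygous for LSL-Nrf2D29H, an allele of the transcription factor NRF2 (gene Nfe2l2) that Cre switches on as the D29H mutant. With empty virus this allele is described as silent, and those cells are labelled Nrf2 KO. In the Keap1 groups all cells were homozygous for CA-Keap1R554Q, an allele of the NRF2 inhibitor KEAP1 that acts as wild type until Cre turns it into the R554Q mutant. Each of the 4 groups (Nrf2 D29H, Nrf2 KO, Keap1 R554Q and Keap1 WT) had 3 libraries. Wild-type cells given Cre were not analysed here, so Cre itself and the mutant allele cannot be told apart. Nothing in the labels says whether the 3 libraries of a group came from separate embryos or cultures, so p-values measure only the spread between these libraries, which may be technical.

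The proteasome degrades proteins marked with ubiquitin. Its core is a barrel of outer alpha rings and inner beta rings, with cutting sites in the beta subunits encoded by Psmb5 (chymotrypsin-like), Psmb6 (caspase-like) and Psmb7 (trypsin-like). The regulatory particle, called 19S, caps the barrel: the ATPases Psmc1 to Psmc6 of its base unfold the substrate, other base subunits bind ubiquitin, and its lid removes the ubiquitin chain. NRF2 and its relative NRF1 (gene Nfe2l1) are both known activators of proteasome genes through antioxidant response elements, and interferon induces the immunoproteasome subunits Psmb8, Psmb9 and Psmb10 and the PA28 activator genes Psme1 and Psme2.

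The promoters of Psmb5, Psmb6 and Psmc6 are shown because they hold the letters TGACNNNGC, the core of the antioxidant response element to which NRF2 binds. The RNA of these genes is described here with an Nrf2 allele that is mutant or described as silent, and with mutant or normal KEAP1. In the RefSeq promoter table of GRCm38.p6, 42 of the 50 genes had a window of 300 bases, from 250 before to 50 after the start, in 45 windows. Capitals mark the match, which in Psmc6 reads on the opposite strand. Each line gives 100 bases of the gene's own strand, 5′ to 3′.
Psmb5 (chr14:54617996-54618095, minus strand): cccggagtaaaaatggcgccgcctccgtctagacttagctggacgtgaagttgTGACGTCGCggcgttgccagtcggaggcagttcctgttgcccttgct
Psmb6 (chr11:70525257-70525356, plus strand): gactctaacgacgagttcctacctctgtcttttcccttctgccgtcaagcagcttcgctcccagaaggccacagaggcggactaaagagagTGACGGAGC
Psmc6 (chr14:45329574-45329673, plus strand): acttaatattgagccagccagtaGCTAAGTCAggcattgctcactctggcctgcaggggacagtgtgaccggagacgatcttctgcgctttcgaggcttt

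On either strand, TGACNNNGC was found in 6 of the 45 windows of proteasome genes (13.3%), against 12.4% of all 32851 windows in the table. The window of Nqo1, an NRF2 target described below, held 0 such matches, so these shares say nothing of elements outside the window. The other members with a match were Psmd9, Psmd12 and Psme4. The CCAAT box was found in 15 member windows (33.3%), against 37.4% of all windows. A match to the interferon-stimulated response element was found in 5 member windows (11.1%): those of Psmb3, Psmd4, Psmd9, Psme1 and Psmg4. In all windows that share was 3.44%. A match describes letters in this window and is not a measured binding site.

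The 12 libraries held 14963004 to 23818477 counted reads, and the shallowest was Nrf2 KO replicate 3. Mitochondrial genes took 0.725% to 1.77% of the reads, with the highest share in Nrf2 D29H replicate 2. Fibroblast markers had a summed level of 10488 to 16167 CPM (read counts scaled to library size, here with TMM factors over all 12 libraries). Most of it came from Col1a1 (6883 to 10620 CPM) and Col1a2 (2200 to 4064 CPM). The lowest of these markers were Dcn (14.1 to 26.5 CPM) and Pdgfra (39.2 to 63.1 CPM). The macrophage marker list, of which 9 of 10 genes were in both tables, summed to 147 to 198 CPM in the Nrf2 libraries and 75.6 to 117 CPM in the Keap1 libraries. Lyz2 was the highest of that list, at 43.0 to 103 CPM over all libraries. The 4 endothelial markers summed to 14.9 to 23.1 CPM, nearly all from Kdr (13.9 to 22.1 CPM), with Tek at up to 1.76 CPM and Pecam1 and Cdh5 at up to 0.275 CPM. The 4 epithelial markers summed to at most 0.805 CPM. Of the muscle markers, Des had 9.06 to 16.6 CPM and Myog at most 0.0915 CPM. The NRF2 target Nqo1 rose with Cre in both alleles, with log2 fold changes (log2FC) of 3.74 (SE 0.13) for D29H and 3.41 (SE 0.10) for R554Q (edgeR quasi-likelihood test, higher in 3 of 3 libraries each). Nfe2l2 reads were present in the libraries labelled Nrf2 KO, at 40.1 to 46.5 CPM. D29H had 49.6 to 57.1 CPM and Keap1 WT 41.7 to 44.2 CPM. The Nrf2 KO group is therefore called labelled knockout.

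In level the standard proteasome dominated these fibroblasts. All 50 members together took 0.645% to 0.764% of the scaled reads of a library. Levels between genes are compared as fragments scaled to gene length and library size (FPKM), scaled over the 12 libraries, with the gene lengths listed by the authors. The 14 core subunits had mean levels from 108 FPKM (Psma1) to 301 FPKM (Psmb5), with a median of 194.9 FPKM. The 17 regulatory subunits ran from 32.6 FPKM (Psmd11) to 363 FPKM (Psmd8, a lid subunit), with a median of 111 FPKM. The 7 assembly chaperones, which act on particles being built, were lower, from 2.58 FPKM (Psmg3) to 32.5 FPKM (Psmg4). Pomp, the maturation factor of the core, is outside the naming rule and had 249.96 FPKM.

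Of the inducible and tissue-restricted forms, Psmb8, Psmb9, Psma8 and Psmb11 were the lowest 4 members, and Psmb10 lay among the chaperones. Psmb10 had a mean of 19.5 FPKM, which was 13.8% of the level of Psmb7, the standard subunit it replaces. Psmb8 had 0.653 FPKM, or 0.218% of Psmb5, and Psmb9 had 0.285 FPKM, or 0.116% of Psmb6. The ranges of Psmb8 (0.158 to 1.03 FPKM) and Psmb9 (0.156 to 0.501 FPKM) overlapped, and neither reached the lowest level of Psmb10 (15.4 FPKM). Psma8, the alpha subunit of testis, had 0.596 FPKM and Psmb11, the beta subunit of thymic epithelium, 0.0128 FPKM. Psmb11 had at most 0.137 CPM in any library and was the 1 member left out of the tests for low counts, so 49 members were tested.

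**Figure D1:**
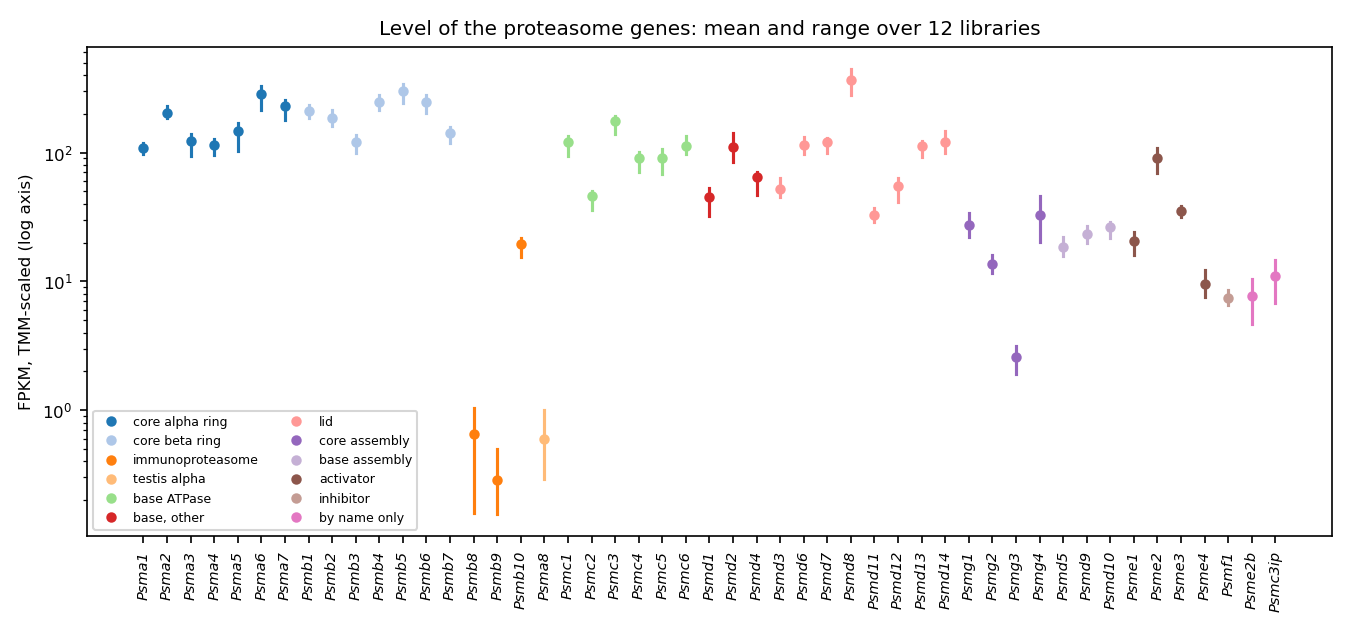
Level of each proteasome gene in FPKM on a log axis, as the mean (point) and the lowest to highest value (line) over 12 libraries, coloured by role. Psmb8, Psmb9 and Psma8 lie near or below 1 FPKM, while the means of the 14 core subunits run from 108 to 301 FPKM. Psmb11, at a mean of 0.0128 FPKM, is not drawn.

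Among the activators, which open the core without ATP, Psme2 had 90.2 FPKM and its PA28 partner Psme1 20.5 FPKM. The nuclear activators were at 35.3 FPKM for Psme3 (PA28 gamma) and 9.57 FPKM for Psme4 (PA200). Psmf1, which encodes the inhibitor PI31, had 7.36 FPKM. For the 31 core and regulatory subunits the highest library was 1.22 times (Psma1) to 1.68 times (Psmd2) the lowest, with a median of 1.40 times. This range was not computed over all genes. The widest range among all tested members was that of Psmb8, at 6.55 times, a gene with 317 reads in all 12 libraries together.

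What switching on D29H does to these genes was read from D29H against labelled knockout. No proteasome gene passed the threshold of an adjusted p under 0.05: 0 of 49 members were called by edgeR, 0 by DESeq2 and 0 by limma, where 4.75% of all 14370 genes were called (3.47% higher and 1.28% lower). At an unadjusted p under 0.05 there were 11 members, 4 higher and 7 lower, against 22.9% of all genes. The smallest adjusted p in edgeR was 0.0919, for Psme2. The median log2FC of the 49 members was -0.04, against 0.000428 over all genes tested, with 21 positive and 28 negative, where 50.1% of all genes were positive. Without D29H replicate 1 the members' median was -0.11, and without D29H replicate 2 it was 0.00074. Over the 31 core and regulatory subunits the highest upper bound of a 95% interval was 1.49-fold (Psma5) and the lowest lower bound 0.669-fold (Psmd2). Each interval holds for a single gene in this fit and for the spread between these libraries, so the extremes are not a joint bound. Calls depended on single libraries, since without D29H replicate 1 there were 8 lower and 1 higher members, and without labelled-knockout replicate 1 there were 1 lower and 3 higher. Calls over all genes moved in the same fits, to 998 lower and 1194 higher of 14608 genes in the former and to 314 lower and 599 higher of 14598 in the latter, from 184 lower and 498 higher.

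The alpha ring and the regulatory particle lay on opposite sides of 0 in this comparison. The 7 alpha subunits had a median log2FC of 0.13, with 5 positive, and the 7 beta subunits had a median of -0.09, with 6 negative. The beta median was -0.19 without D29H replicate 1, -0.04 without D29H replicate 2 and -0.16 with offsets for GC content and length. Psma5 was the alpha subunit with the largest value. It had 202, 209.6 and 203 CPM in D29H and 188, 170.1 and 128 CPM in labelled knockout. All D29H libraries were above all labelled-knockout libraries, and replicate 3 was the lowest. The log2FC of Psma5 was 0.33 (SE 0.12), with an adjusted p of 0.0972 in edgeR (0.0300 to 0.311 across its alternatives). Without labelled-knockout replicate 3 the median of the alpha subunits was -0.00436, with 3 of 7 positive.

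The 17 regulatory subunits had a median of -0.17, with 14 negative and 0 called. The 3 base subunits without ATPase activity were the lowest group, at a median of -0.31. Psmd2, a base scaffold, had 309, 253 and 256 CPM in D29H and 299.7, 351 and 379 CPM in labelled knockout. D29H replicate 1 was above labelled-knockout replicate 1, so the groups overlapped. Its log2FC was -0.34 (SE 0.12, adjusted p 0.0938 in edgeR; 0.0192 to 0.399 across its alternatives). In the authors' deposited table Psmd2 was the 1 member called of 46 with an adjusted p, with a log2FC of -0.31 and an adjusted p of 0.0440. Of all 12147 genes with an adjusted p in the authors' deposited table, 3.37% were called higher and 2.91% lower. Psmd1, the other scaffold, had -0.31 (adjusted p 0.130 in edgeR) and the ubiquitin receptor Psmd4 -0.27 (adjusted p 0.164). Psmd4 had 142, 99.99 and 124 CPM in D29H and 144, 149 and 146 CPM in labelled knockout, so those groups did not overlap.

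Groups that did not overlap were found for 2 members higher in D29H (Psma5 and Psme2) and 4 lower (Psmd4, the lid subunit Psmd7, the chaperone Psmg2 and the activator Psme3). In all genes tested the shares were 12.7% higher and 12.9% lower, or 25.6% either way. The ATPases had a median of -0.18, with Psmc6 (0.09) as the 1 positive value of 6, and the lid had a median of -0.12, with 6 of 8 negative. Without D29H replicate 1 these medians were -0.30 and -0.18, and without D29H replicate 2 the ATPase median was -0.08.

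**Figure D2:**
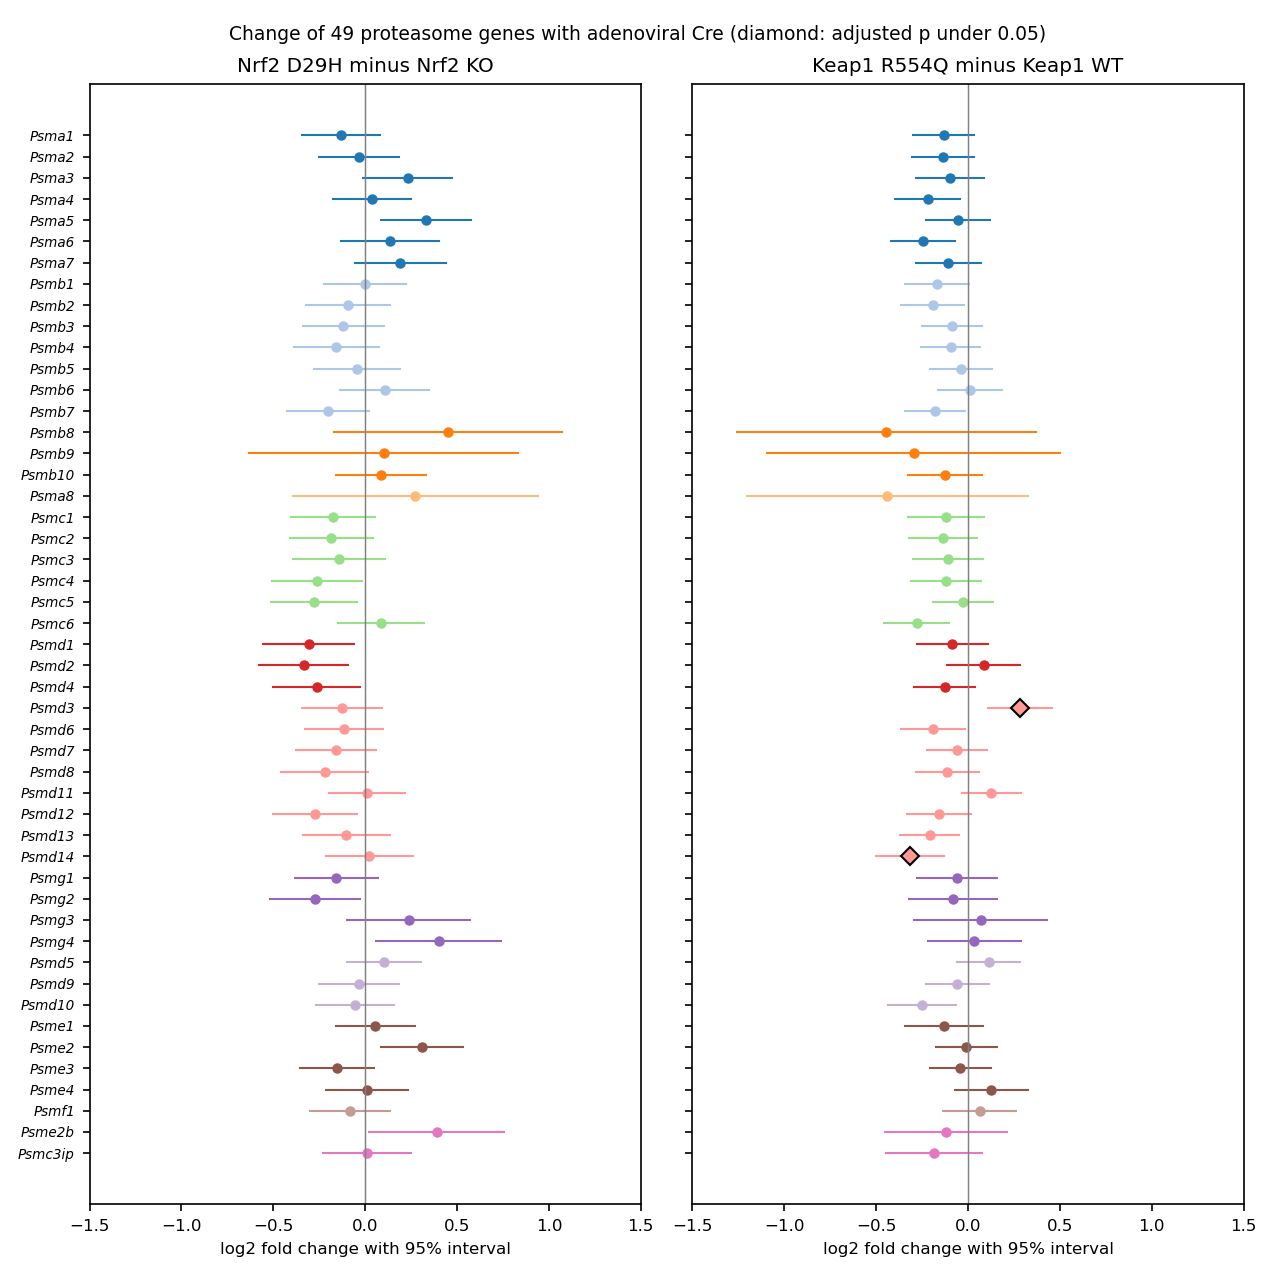
Log2 fold change with its 95% interval for the 49 tested proteasome genes, coloured by role as in the plot of levels, for Nrf2 D29H against labelled knockout (left) and Keap1 R554Q against wild type (right). Diamonds mark Psmd3 and Psmd14, the members with an adjusted p under 0.05, both in the R554Q comparison.

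Summed levels showed which libraries carried these values. The 14 core subunits summed to 3331, 3093 and 3166 CPM in D29H and to 3406, 3166 and 2733 CPM in labelled knockout. The 17 regulatory subunits summed to 3457, 2792 and 2984 CPM in D29H and to 3472, 3500.5 and 3422 CPM in labelled knockout. D29H replicate 2 was thus lowest for the regulatory particle, and it was the lowest of the 12 libraries for 14 of its 17 subunits. Labelled-knockout replicate 3 was lowest for the core, and it was the lowest of the 12 libraries for 5 of the 7 alpha subunits. D29H replicate 2 also had the highest mitochondrial share (1.77%), and labelled-knockout replicate 3 was the shallowest library; their part in these sums was not tested. Without D29H replicate 2 the median of the regulatory subunits was -0.08, and without D29H replicate 1 it was -0.30, with 7 called lower in a fit that called 998 of 14608 genes lower.

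The core sum divided by the regulatory sum was 0.964, 1.11 and 1.06 in D29H and 0.981, 0.904 and 0.798 in labelled knockout. The lowest D29H library lay below the highest labelled-knockout library. In the Keap1 cells the same ratio was 0.910, 0.942 and 0.791 in R554Q and 0.915, 0.891 and 0.875 in wild type, and these groups overlapped too. The ratio was not tested, being formed from sums. Core genes had shorter listed lengths (median 1162.5 bases, GC content 47.2%) than regulatory genes (median 1883 bases, GC content 50.6%). With GC and length offsets the median of the regulatory subunits in the D29H comparison was -0.15, with 14 of 17 negative.

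**Figure D3:**
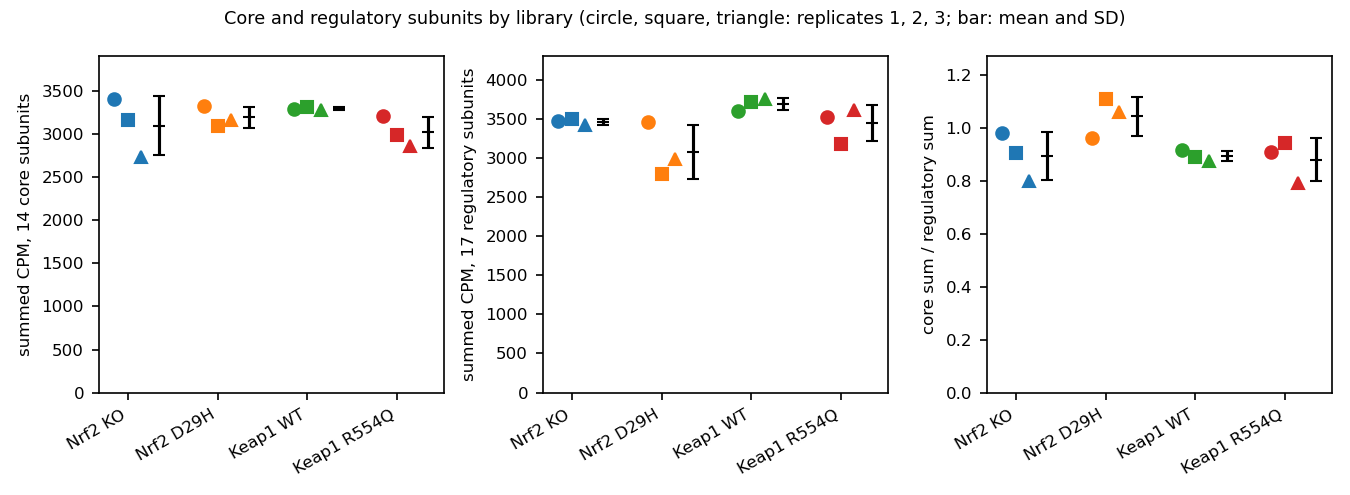
Summed CPM of the 14 core subunits (left) and the 17 regulatory subunits (middle) and their ratio (right) in each of the 12 libraries, with the mean and SD of each group of 3 as a bar beside the points. The labelled-knockout core sum is lowest in replicate 3 (2733 CPM), and the D29H regulatory sum is lowest in replicate 2 (2792 CPM).

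The comparison of Keap1 R554Q with Keap1 WT asks what loss of normal KEAP1 does in cells with their own NRF2. Of 49 proteasome genes, edgeR called 1 higher, Psmd3, and 1 lower, Psmd14, against 3.77% called higher and 2.4% called lower (6.17% either way) of all 14128 genes. Of the 49 log2FC values 40 were below 0, of which Psmd14 alone passed, and the median of all 49 was -0.11, against -0.000989 over all genes tested, of which 49.9% were positive. At an unadjusted p under 0.05 there were 10 members, 1 higher and 9 lower, against 24.2% of all genes. That median moved with the correction for GC content and length, to -0.02 with such offsets, and with them 0 members were called.

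Psmd14 encodes the lid enzyme that removes ubiquitin chains (ENSMUSG00000026914; chr2:61711694-61800376, plus strand, GRCm38). It had 177, 153 and 167 CPM in R554Q and 202, 228 and 191 CPM in wild type. All R554Q libraries were below all wild-type libraries. Its log2FC was -0.32 (SE 0.09), with an adjusted p of 0.0400 in edgeR and 0.00616 to 0.595 across its alternatives. With offsets for GC content and length it was -0.08 (adjusted p 0.565), and it passed the threshold in 1 of 6 fits that each left out a library, the one without R554Q replicate 3. In the 12-library fit its adjusted p was 0.0865.

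Psmd3 encodes another lid subunit (ENSMUSG00000017221; chr11:98682554-98695979, plus strand, GRCm38). It had 168, 182 and 163 CPM in R554Q and 137, 133 and 154 CPM in wild type. The groups did not overlap, and replicate 2 of R554Q was the highest. Its log2FC was 0.28 (SE 0.08), with an adjusted p of 0.0494 in edgeR and 0.00345 to 0.242 across its alternatives. It too passed the threshold in 1 of 6 fits without a library, again the one without R554Q replicate 3, and its adjusted p was 0.0506 with RLE scaling and 0.0898 in the 12-library fit. In the D29H comparison Psmd3 had -0.13 (adjusted p 0.498) and Psmd14 0.02 (adjusted p 0.930).

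In the authors' deposited table of this comparison 1 member was higher and 4 lower of 46 with an adjusted p, against 5.26% higher and 4.9% lower of all 10812 genes with one. They were Psmd3 (log2FC 0.26) and Psmd14 (-0.29), and the alpha subunit Psma6, the ATPase Psmc6 and the lid subunit Psmd13. In edgeR the adjusted p was 0.0805 for Psma6 (log2FC -0.25, SE 0.08), 0.0538 for Psmc6 (-0.28, SE 0.08) and 0.106 for Psmd13 (-0.21, SE 0.08). Psmc6 had 164, 152 and 162 CPM in R554Q and 191, 212 and 179 CPM in wild type, so the R554Q libraries were all lower. Psma6 had 283, 256 and 241 CPM in R554Q and 312, 318 and 298 CPM in wild type, and again the groups did not overlap.

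By role, the 14 core subunits had a median of -0.12 with 13 negative, and the exception was Psmb6 (0.01). The 17 regulatory subunits had a median of -0.12 with 14 negative, and the exceptions were Psmd3, Psmd11 (0.13) and Psmd2 (0.08). With the offsets 7 of the 14 core subunits were negative, at a median of 0.00387, and the regulatory median was -0.05 with 13 negative. Groups did not overlap for 2 members higher (Psmd3 and Psmd11) and 13 lower, against 13.3% and 14.2% of all genes. The interval bounds over the 31 core and regulatory subunits were 0.707-fold (Psmd14) and 1.37-fold (Psmd3). Core sums were 3212, 2998 and 2860 CPM in R554Q and 3295, 3314 and 3282 CPM in wild type, and all R554Q libraries were lower. Regulatory sums were 3529, 3184 and 3617 CPM in R554Q and 3600, 3717 and 3750 CPM in wild type, and those groups overlapped.

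The D29H and R554Q comparisons share no library. Across the 49 members the correlation of their log2FC values was -0.18 (Pearson) and -0.09 (Spearman), and 31 members (63.3%) had the same sign. Across all 13860 genes tested in both, r was 0.43 and rho 0.38, and 64.1% had the same sign. These are correlations across genes, which are not independent replicates and share the libraries of each comparison.

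The responses to Cre of both alleles were compared as the D29H minus the R554Q log2FC, in 1 fit of all 12 libraries. No member passed: 0 of 49 were called by edgeR, 0 by DESeq2 and 0 by limma, against 0.027% of 14794 genes in edgeR (0.00676% with a positive and 0.0203% with a negative difference). At an unadjusted p under 0.05 there were 9 members, 7 with a positive and 2 with a negative difference, against 11.3% of all genes. In all, 27 of 49 differences were positive, against 50.9% of all genes. Psmd3 had the smallest adjusted p, with a difference of -0.40 (SE 0.13, adjusted p 0.292). All 7 alpha subunits had positive differences, with a median of 0.31, and Psma5 had the largest at 0.39 (SE 0.15, adjusted p 0.340). With offsets for GC content and length that median was 0.21, with 5 of 7 positive, and without labelled-knockout replicate 3 it was 0.22. The regulatory subunits had a median difference of -0.10, with 13 of 17 negative, and without D29H replicate 2 it was -0.01. The interval of the difference for Psmd2 reached down to 0.601-fold.

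The 3 subunits with cutting sites did not pass in either comparison. Psmb5 had 276, 210.1 and 263 CPM in D29H and 262, 262 and 247 CPM in labelled knockout, a log2FC of -0.04 (SE 0.11, adjusted p 0.853 in edgeR). It had 279, 264 and 259 CPM in R554Q and 277, 256 and 294 CPM in wild type, a log2FC of -0.04 (SE 0.08, adjusted p 0.803). Groups overlapped in both, and D29H replicate 2 was the lowest of the 12. Its 95% interval ran from -0.28 to 0.19 in the D29H comparison and from -0.21 to 0.13 in the R554Q comparison.

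Psmb6 had 262, 231 and 269 CPM in D29H, 261, 250.3 and 195 CPM in labelled knockout, 255, 235 and 215 CPM in R554Q and 237, 224 and 242 CPM in wild type. Its log2FC values were 0.11 (SE 0.12, adjusted p 0.616) for D29H and 0.01 for R554Q (SE 0.08, adjusted p 0.965). Psmb7 had 175, 138 and 143 CPM in D29H, 177, 175 and 173 CPM in labelled knockout, 156, 149 and 167 CPM in R554Q and 172, 184 and 180.4 CPM in wild type. The corresponding log2FC values were -0.21 (SE 0.11, adjusted p 0.257) for D29H and -0.18 for R554Q (SE 0.08, adjusted p 0.170). R554Q lay below wild type in every library of Psmb7, whereas D29H replicate 1 lay within the labelled-knockout range. The 2 promoters shown above with a match next to the start, those of Psmb5 and Psmb6, thus belong to genes that did not pass with either allele, and Psmc6, the third, had log2FC values of 0.09 with D29H and -0.28 with R554Q. Nqo1, which rose with Cre in both alleles, had 0 matches in its window.

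The immunoproteasome subunits did not pass in either Cre comparison. Psmb10 had 26.6, 26.5 and 25.0 CPM in D29H, 27.7, 25.8 and 19.6 CPM in labelled knockout, 25.4, 22.7 and 21.5 CPM in R554Q and 26.2, 24.4 and 25.8 CPM in wild type. Its log2FC values were 0.09 (SE 0.12, adjusted p 0.697 in edgeR) with D29H and -0.13 (SE 0.10, adjusted p 0.455) with R554Q. Groups overlapped in both comparisons.

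Psmb8 (ENSMUSG00000024338; chr17:34197721-34201454, plus strand, GRCm38) had 1.97, 1.30 and 1.94 CPM in D29H and 1.03, 1.68 and 1.05 CPM in labelled knockout. In the Keap1 cells it had 0.3005, 1.27 and 0.939 CPM in R554Q and 1.23, 1.06 and 1.18 CPM in wild type. D29H held the highest 2 libraries and R554Q the lowest 2. The corresponding log2FC values were 0.45 (SE 0.30, adjusted p 0.379) for D29H and -0.45 for R554Q (SE 0.39, adjusted p 0.513), with intervals from -0.17 to 1.07 and from -1.26 to 0.37. Psmb9 (ENSMUSG00000096727; chr17:34181988-34187764, minus strand, GRCm38) had 0.961, 0.808 and 1.45 CPM in D29H, 0.772, 0.880 and 1.44 CPM in labelled knockout, 0.451, 0.544 and 0.593 CPM in R554Q and 0.711, 0.709 and 0.536 CPM in wild type. Its log2FC values were 0.10 (SE 0.36, adjusted p 0.892) for D29H and -0.30 for R554Q (SE 0.38, adjusted p 0.676). Psmb9 shares exon positions with Tap1 on the opposite strand, and Tap1 had 1960% of its reads. Whether strand was used is not given in the sources used here, so reads of the pair cannot be told apart.

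Set side by side across the cultures, Psmb8 and Psmb9 were lower in the Keap1 mutant than in the Nrf2 mutant. In the 12-library fit of R554Q against D29H, Psmb8 fell by 1.03 (SE 0.36, adjusted p 0.0363 in edgeR; 0.0112 to 0.184 across its alternatives) and Psmb9 by 1.01 (SE 0.37, adjusted p 0.0460; 0.0384 to 0.232). Psmb8 passed in 8 of the 12 fits that each left out a library, and was lost without D29H replicate 1 or 3 or R554Q replicate 1 or 3. Psmb9 passed in 2, those without D29H replicate 2 and without labelled-knockout replicate 3, and was lost with DESeq2 (adjusted p 0.0681) and with no filter (adjusted p 0.0651). Psmb10, the most abundant of the 3, was not called, at a log2FC of -0.16 (SE 0.11, adjusted p 0.279). Between the controls, labelled knockout against Keap1 wild type, the log2FC was 0.13 for Psmb8 (adjusted p 0.852), 0.61 for Psmb9 (adjusted p 0.272) and -0.05 for Psmb10 (adjusted p 0.787). Psma8 fell by 1.16 (SE 0.34, adjusted p 0.0160), and its levels were 1.69, 1.30 and 1.22 CPM in D29H against 0.751, 0.634 and 0.494 CPM in R554Q. That call was lost without D29H replicate 1 and without R554Q replicate 3. Of the 18 genes of antigen presentation and interferon response, 10 were called lower and 2 higher in R554Q than in D29H, against 13.1% and 13.4% of all genes, with a median log2FC of -0.52. In the control comparison (labelled knockout minus Keap1 WT), 9 of these 18 were called higher and 2 lower, against 9.58% and 10.1% of all genes. Macrophage markers, which come from a cell type that expresses immunoproteasome subunits, were lower in R554Q at the same time. All 9 measured markers were called lower, and their sum was 93.1, 75.6 and 83.9 CPM in R554Q and 198, 177 and 182 CPM in D29H. The control comparison differed likewise: 8 of the 9 were called higher in labelled knockout than in Keap1 WT and 0 lower, with a median log2FC of 1.05. None of the 9 was at 0 in any library, and the part of either list in the values of Psmb8 and Psmb9 was not tested. In bulk RNA, fewer cells of a type and less RNA per cell cannot be told apart. Allele, culture and deposited table all differ between these groups and cannot be told apart either.

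Over all members, that comparison had 6 higher and 4 lower calls of 49, against 13.4% higher and 13.1% lower of all 14794 genes. At an unadjusted p under 0.05 there were 10 higher and 9 lower members, against 38.4% of all genes, and groups did not overlap for 8 higher and 9 lower, against 37.3%. Of the 49 members, 24 were positive, against 48.4% of all genes. The higher members were Psmd2 (log2FC 0.44, SE 0.11), Psme4 (0.39, SE 0.11), Psmd8 (0.34, SE 0.09), Psmd3 (0.32, SE 0.09), the base chaperone Psmd5 (0.31, SE 0.08) and Psmf1 (0.26, SE 0.10), with adjusted p from 0.00489 to 0.0494 in edgeR. Psmf1, at 0.0494, was lost with upper-quartile scaling, no filter, a mean count of at least 50 and limma (adjusted p 0.0355 to 0.175 across its alternatives), and passed in 2 of 12 fits without a library, those without labelled-knockout replicate 3 and without R554Q replicate 2. The other lower member was Psmc3ip (-0.73, SE 0.12). Single libraries moved the count, from 2 higher without D29H replicate 2 to 11 higher without D29H replicate 1, and from 1 lower without R554Q replicate 3 to 7 lower without labelled-knockout replicate 3. Over all genes, calls were 1446 higher without D29H replicate 2, 2236 higher without D29H replicate 1, 1542 lower without R554Q replicate 3 and 2152 lower without labelled-knockout replicate 3, against 1987 higher and 1940 lower with all libraries. With offsets for GC content and length 11 members were higher and 5 lower, and over all genes 2548 were higher and 2173 lower. Psmd2 and Psmc3ip passed in all 12 fits that each left out a library.

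Between the controls, labelled knockout against Keap1 WT in the same fit, 1 member was higher and 1 lower, against 9.58% and 10.1% of all genes (19.7% either way). Groups did not overlap for 3 members higher and 8 lower, against 37% of all genes either way. Psmc3ip, a partner of the meiotic recombinases that is named for binding Psmc3, had 18.9, 17.1 and 15.2 CPM in labelled knockout and 11.9, 11.9 and 12.05 CPM in wild type. The groups did not overlap, and its log2FC was 0.52 (SE 0.12, adjusted p 0.00223 in edgeR; 0.000258 to 0.0206 across its alternatives). It shares exon positions with Mlx on the opposite strand, whose reads were 164% of its own. Psmd5 had 55.3, 53.3 and 53.6 CPM in labelled knockout and 66.8, 70.6 and 62.8 CPM in wild type, a log2FC of -0.30 (SE 0.08, adjusted p 0.0129; 0.00675 to 0.0893). All wild-type libraries were higher, and the call was lost in 3 of 12 fits: those without labelled-knockout replicate 2, wild-type replicate 1 and wild-type replicate 2. Psmd5 was thus higher in both Keap1 groups than in both Nrf2 groups, at 68.4 to 75.4 CPM in R554Q and 53.1 to 61.6 CPM in D29H, but with Cre its log2FC values were 0.10 (adjusted p 0.557) and 0.11 (adjusted p 0.424).

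**Figure D4:**
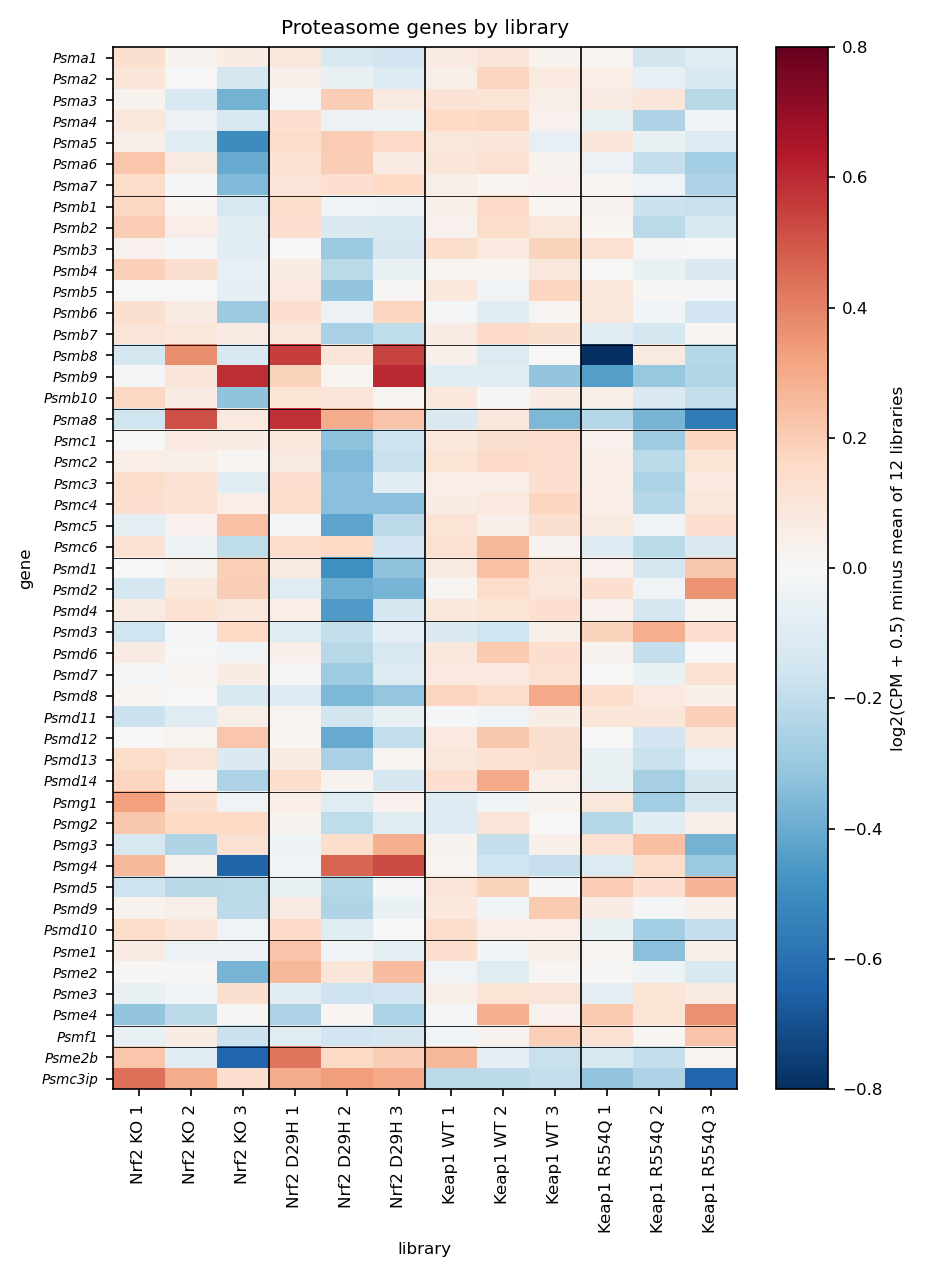
Each tested proteasome gene (rows, ordered by role) in each library (columns, by group), as log2(CPM + 0.5) minus its mean over the 12 libraries, with the colour scale ending at -0.8 and 0.8. Most regulatory rows are blue in D29H replicate 2, the alpha rows other than Psma1 are blue in labelled-knockout replicate 3, and Psmc3ip is red in all 6 Nrf2 libraries and blue in all 6 Keap1 libraries.

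The assembly chaperones had 0 calls of 7 in both Cre comparisons by edgeR. Psmg4, one of the chaperones of the alpha ring, had 17.1, 24.5 and 25.5 CPM in D29H and 21.1, 17.9 and 11.1 CPM in labelled knockout. The groups overlapped, and the lowest library was labelled-knockout replicate 3. Its log2FC was 0.40 (SE 0.17, adjusted p 0.147; 0.0197 to 0.488 across its alternatives), and with R554Q it was 0.03 (adjusted p 0.900). Psmg2, the partner of Psmg1, had 14.8, 12.5 and 13.5 CPM in D29H and 16.9, 16.2 and 16.2 CPM in labelled knockout, all D29H libraries being lower, with a log2FC of -0.27 (SE 0.12, adjusted p 0.165). The base chaperone Psmd10 (gankyrin) had -0.05 with D29H and -0.25 with R554Q (adjusted p 0.785 and 0.0916).

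The activators and the inhibitor had no call with Cre either. Psme2 had 104, 92.2 and 103 CPM in D29H and 86.9, 86.7 and 66.5 CPM in labelled knockout. All D29H libraries were higher, and its log2FC was 0.31 (SE 0.11, adjusted p 0.0919 in edgeR; 0.0583 to 0.327 across its alternatives). In the Keap1 cells it had 86.8, 83.7 and 79.3 CPM in R554Q and 84.4, 80.7 and 87.3 CPM in wild type, with overlap and a log2FC of -0.01 (adjusted p 0.962). Reads of Psme2 may be shared with the like gene Psme2b, whose total was 7.53% of that of Psme2, so both are uncertain. Psme2b had log2FC values of 0.39 (adjusted p 0.189) and -0.12 (adjusted p 0.686).

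Psme1 had 47.7, 40.1 and 38.5 CPM in D29H, 42.5, 39.4 and 39.4 CPM in labelled knockout, 41.3, 32.1 and 41.9 CPM in R554Q and 44.6, 40.1 and 42.0 CPM in wild type. Groups overlapped in both comparisons, with log2FC values of 0.05 (adjusted p 0.790) and -0.13 (adjusted p 0.455). Psme4 had 51.7, 62.2 and 51.6 CPM in D29H, 49.2, 53.2 and 62.0 CPM in labelled knockout, 71.0, 66.3 and 79.2 CPM in R554Q and 61.2, 75.0 and 63.0 CPM in wild type. Its log2FC values with Cre were 0.01 (adjusted p 0.966) and 0.13 (adjusted p 0.446). Psmf1 had 26.0, 25.0 and 25.4 CPM in D29H, 26.8, 29.1 and 24.8 CPM in labelled knockout, 30.3, 28.2 and 32.8 CPM in R554Q and 27.5, 28.4 and 32.0 CPM in wild type. The corresponding log2FC values were -0.08 (adjusted p 0.674) and 0.06 (adjusted p 0.729). Psme4 and Psmf1 were higher in R554Q than in D29H in every library.

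Of a list of other genes that serve the proteasome (among them ubiquitin shuttles, deubiquitinases, NRF1 and its processing, the unfoldase VCP), 28 of 29 were in both tables. With D29H, 0 were called by edgeR, against 4.75% of all genes, with 9 at an unadjusted p under 0.05, against 22.9%, and a median of -0.09. With R554Q the median was -0.02. Pomp had log2FC values of 0.13 with D29H (adjusted p 0.463) and -0.11 with R554Q (adjusted p 0.410). Nfe2l1 had -0.07 (adjusted p 0.733) and -0.06 (adjusted p 0.686).

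Of 18 genes of antigen presentation and interferon response, which act beside the immunoproteasome, 2 were called higher with D29H (Stat2, 0.50, and Bst2, 0.40; adjusted p 0.0144 and 0.0355 in edgeR), against 3.47% of all genes. Bst2 was lost with the GC and length offsets (adjusted p 0.161) and without D29H replicate 1 or 3 or labelled-knockout replicate 1 or 2, and Stat2 without D29H replicate 2 or 3. With R554Q, 2 of 17 tested were called higher, the peptide transporter gene Tap1 (0.36, SE 0.11, adjusted p 0.0475) and Tapbp (0.40, SE 0.10, adjusted p 0.0270), which encodes tapasin, against 3.77% of all genes. With the offsets neither passed (adjusted p 0.187 for Tap1 and 0.185 for Tapbp). Tap1 was also lost with limma (adjusted p 0.0519) and in the 12-library fit (adjusted p 0.0766). Of the 6 fits without a library, Tap1 passed in 1, without R554Q replicate 3, and Tapbp in 2, without R554Q replicate 3 and without wild-type replicate 3. Tap1 had 15.5, 16.8 and 17.2 CPM in R554Q and 12.5, 13.1 and 13.1 CPM in wild type, without overlap. The macrophage marker sum was 75.6 to 93.1 CPM in R554Q and 107 to 117 CPM in wild type; its part in these values was not tested.

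Other overlaps on the opposite strand concern Psmc3 with Slc39a13 (26.8% of its reads), Psmb7 with Nek6 (25.7%) and Psme1 with Emc9 (18.6%). Of the 11 members with a transcript at least 90% identical over at least 50% of its length elsewhere in the annotation, 8 had such a gene in the tables, and apart from Psme2 and Psme2b none of these had over 5% of the member's reads.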

How the data were processed

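Per the labels' protocols, RNA was purified with RNeasy Plus kits and libraries were made with the NEBNext Ultra kit. The submitters' processing notes name STAR, DESeq2 and the build mm10; which tool counted reads, on which annotation and with or without strand, is not given in the sources used here. For each allele the authors deposited a table that holds, per its file headers, unnormalised counts of the genes listed, each of which had at least 1 read. They also deposited FPKM, group means of normalised counts (a signal), log2 fold changes, p-values and gene lengths in bases; of these only the lengths entered a fit, in the offsets below.

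Counts were tested in R 4.3.3 with edgeR 4.0.16 (filterByExpr, TMM, quasi-likelihood test, Benjamini-Hochberg adjustment over all genes tested, threshold 0.05). The D29H and R554Q comparisons used their own 6 libraries, and the other 3 used 1 fit of 12 libraries. Each SE is |log2FC| over the root of the F statistic; 95% intervals use the fit's degrees of freedom. Printed CPM and FPKM are scaled with TMM over 12 libraries, and group values are given library by library in replicate order. Depth is known from the counts, and intervals cover the spread between libraries. Alternatives were scaling by RLE or the upper quartile, a filter at a mean count of 50 or none, limma 3.58.1 with trend, DESeq2 1.42.0, a replicate block, offsets for GC content and gene length (lowess, span 0.3), all 12 libraries in 1 fit, and leaving out each library. The tests were tried on simulated counts with changes larger than those of the core and regulatory subunits. Recovery of changes of their size was thus not tried. Similar transcripts were found with blastn 2.17.0 in GENCODE M21, where all 50 members were found at overlapping positions. Promoters are from RefSeq.

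The members, the gene lists and the tests were chosen with earlier results of these data known. Every member may be named; values per library are given for members called in a Cre comparison, the cutting-site, immunoproteasome, PA28, PA200 and PI31 genes, and members singled out by size after their values were seen. From the other lists, genes called with Cre, Pomp and Nfe2l1 are named, except for 1 result that is not reported here.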

Additional observations from a re-analysis of the deposited data

How the results depend on the processing

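Of 2071 values of single genes under the alternatives, 1954 kept their side of the threshold, among them 98 that were not called and changed sign; 100 lost a call, 17 gained one and 0 calls changed sign. For D29H against labelled knockout, 1 member was called higher with no filter on low counts (Psmg4), and fits without 1 library ranged over 0 to 3 higher, 0 to 8 lower (72 to 1194 and 9 to 998 over all genes). For R554Q against wild type, RLE scaling gave 0 higher, no filter 2 lower and DESeq2 3 lower. The replicate block, the offsets for GC content and length, both together, and all 12 libraries in 1 fit each gave 0 higher and 0 lower, and the members' median was -0.0233 with the offsets and -0.0243 with the block as well; without 1 library there were 0 to 1 higher and 0 to 5 lower (186 to 1533 and 48 to 1342 over all genes). The median difference between the alleles ran from -0.0483 to 0.11 without 1 library. For labelled knockout against Keap1 wild type, DESeq2 called 2 lower, the offsets 2 higher and 3 lower, with and without the block, and leaving out 1 library gave 0 to 2 lower. For R554Q against D29H, a mean count of at least 50 gave 2 lower and the offsets 11 higher, and without 1 library there were 2 to 11 higher, 1 to 7 lower and a median from -0.0588 to 0.0724. Where the cause is not in the alternative's construction (fewer samples or genes), the cause was not tested. The replicate numbers did not pair the samples: deviations of same-numbered libraries had r of -0.11, -0.17 and -0.16 in the Nrf2 table and 0.11, -0.43 and -0.16 in the Keap1 table. The replicate block took the R554Q calls from 2 to 0, lost the calls of Tap1 (adjusted p 0.103) and, for R554Q against D29H, of Psmb9 (0.0555) and Psmf1 (0.0647), and in the D29H comparison it gave 0 calls, as without it. Depth limits Psmb8, Psmb9 and Psma8, at about 1 CPM, to intervals over 1 log2 unit wide, and Psmb11 to a level alone. A fit that left out a library had 2 in its group.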
